A study of Mus musculus with 15 samples.

Results

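The cells described here are mouse brain macrophages taken at 1 month of age, with and without the mutant kinase BRAF V600E. They make up 5 of the 15 samples of the series, namely 3 samples labelled BRAFV600E (called VE, numbers 3, 4 and 5) and 2 labelled BRAFWT (called WT, numbers 4 and 5). Per the labels, all samples came from a line carrying a Csf1rMeriCreMer transgene, a BRAFLSL-V600E allele and a Rosa26LSL-YFP reporter. In that line an inducible Cre recombinase under the Csf1r promoter acts in cells of the macrophage lineage, switching on the mutant allele and the yellow fluorescent protein together. Csf1r is also active in macrophages outside the brain, so the model is not limited to brain cells. The labels state the allele set once for all samples and do not say which alleles the WT samples carry or when Cre was induced. Cells were sorted as YFP+ F4/80+, but the source label adds YFP+ to the VE samples only, so a difference in sort gate and a difference in genotype cannot be told apart. The brain region is given as brain stem, and the source labels call the cells microglia. The labels do not state whether each sample was a different animal, and the p-values describe only how far these 5 samples scatter, part of which may be technical.

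Expression was deposited as TPM, a transcript level scaled for gene length so that each column has the same total, with 2 repeat columns for each of the 5 samples. The repeat columns were averaged and counted as 1 sample, and the genotypes were compared as 3 against 2 on log2(TPM + 1). Of 39017 genes in the table, 6301 had at least 1 TPM in every repeat column of a genotype and were tested. Of these, 4227 reached that level in all 10 columns, 739 only in the 6 VE columns and 1335 only in the 4 WT columns. The filter favoured genes higher in the genotype through which they entered, so counts below are read mainly over the 4227. It did not fix the direction: Braf entered through the VE columns only but was not higher in VE (log2 fold change -0.47). Of the genes described below, Braf, Etv1, Ccne2, Spp1, Ifitm3, Rtp4 and those named as such entered through the VE columns only, and Gm15706, Shc1, Tnfaip3, Mbp, Mobp and those named as such through the WT columns only.

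Microglia are the resident macrophages of the brain, and they depend on the growth factor receptor CSF1R. BRAF relays signals from RAS to the kinases MEK and ERK, and the V600E change keeps BRAF active without an upstream signal. ERK signalling drives feedback inhibitors such as the dual-specificity phosphatases and Sprouty proteins, and it can feed into the release of cytokines and chemokines. Myeloid cells with this mutation cause human histiocytoses, which can be accompanied by neurodegeneration.

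The labelled cell type was checked against its markers. All 10 microglial markers and all 6 general macrophage markers stood at 1 TPM or more in each of the 10 columns, and P2ry12, the ADP receptor typical of microglia, was at 14997 TPM or more. The number of genes at 1 TPM or more ranged from 8903 to 9856 per column. Mitochondrial genes took 5.18% to 15.2% of the TPM. Repeat columns of the same sample were no more alike (Spearman correlation across genes 0.796 to 0.844, a description) than columns of different samples of the same genotype (0.795 to 0.841). TPM values keep no read depth, so no counting error can be given for single values. Eif2s3y, a Y-linked gene, was high in VE 4 and WT 4 and low in the other 3 samples. The value listed for Tsix, an X-linked antisense RNA, showed the reverse, so each genotype held both patterns. The reads carry no strand, so Tsix cannot be told apart from the gene opposite it.

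At an adjusted p under 0.05 (limma, Benjamini-Hochberg over 6301 genes), 1 gene passed, which is 0.0159% of those tested. It was Gm15706 (chr6:145250529-145251849, mm10), a long intergenic noncoding RNA that entered the test through the WT columns only. Gm15706 stood at 0.203, 0.0198 and 0.0222 TPM in the VE samples and at 59.0 and 35.6 TPM in the WT samples. It fell by 5.44 on the log2 scale (SE 0.610, limma adjusted p = 0.0421). On leaving out any of the 5 samples in turn the log2 fold change was -5.80 to -5.08. Its direction could not turn, as no columns overlapped. Gm15706 no longer passed with any VE sample left out. Leaving out a WT sample leaves 1 in that group, so only the size of the difference is given there. No gene passed in the higher direction, where 152 genes (2.41%) reached an unadjusted p under 0.05, as did 255 (4.05%) in the lower direction. The differences described in the following paragraphs are therefore measured values that did not pass the adjusted threshold, and they are given with their spread. A second description counts genes whose columns did not overlap between genotypes. It held for 43 genes with VE higher (0.682% of those tested) and 79 with VE lower (1.25%), and among the 4227 genes present in every column for 24 (0.568%) and 38 (0.899%). With each column rescaled by the median ratio the split over all tested genes was 56 higher and 49 lower. The count past the limma adjusted p of 0.05 depended on the fit. It was 11 genes (0.175%) when the repeat columns were averaged after taking logs and 20 (0.317%) when they entered as observations with the sample as a random block. It was 113 (1.79%) when the liver samples shared the fit and 67 (1.06%) with the replicate number as a block. That block takes VE 3, which has no WT partner, out of the difference, whereas simply leaving VE 3 out gave 1 gene. The count was 2 (0.0317%) with a pseudocount of 0.1, 6 of 4073 (0.147%) with a minimum of 5 TPM and 5 of 5394 (0.0927%) after rescaling to nuclear protein-coding genes.

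**Figure D1:**
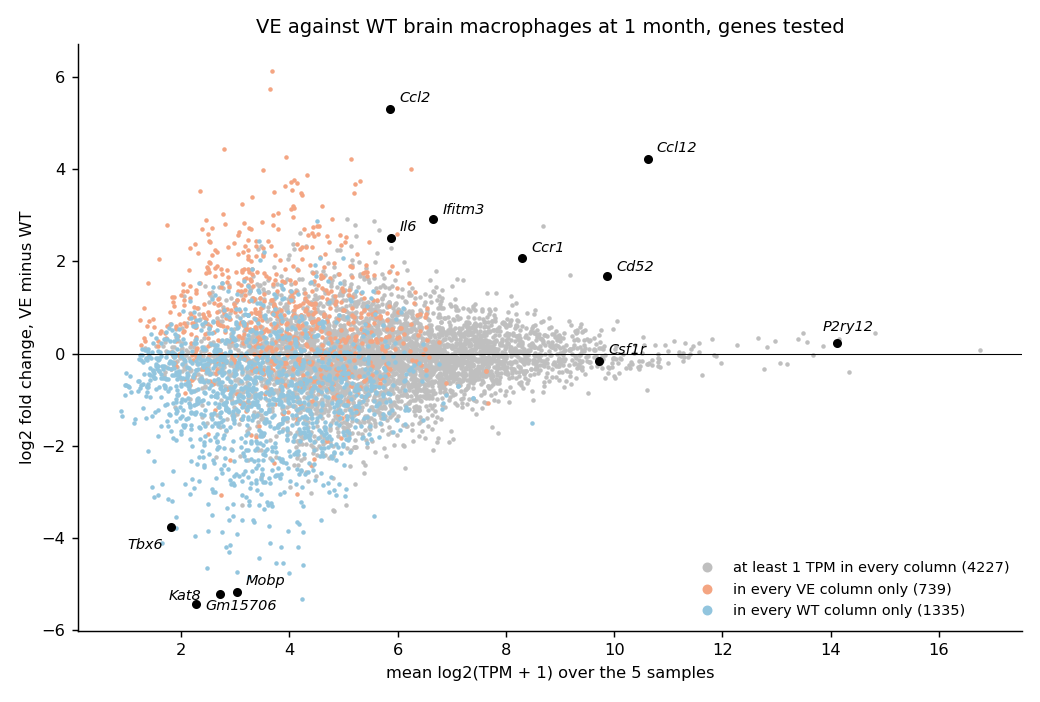
Log2 fold change (VE minus WT, y axis) against mean log2(TPM + 1) over the 5 samples (x axis) for the 6301 genes tested, coloured by the columns in which the gene reached 1 TPM. Ccl12, Ccr1 and Cd52 lie above the cloud at levels where most genes differ little, and Gm15706, the gene that passed, lies at the lower left among genes kept through the WT columns only.

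Among the chemokines that attract monocytes, Ccl2 and Ccl12 had the largest differences, with every VE column above every WT column, though neither passed the adjusted threshold. The list held 10 members, and 6 were tested, all of them in every column. None passed the adjusted threshold, 5 had an unadjusted p under 0.05 in the higher direction (2.41% of all tested genes did), and 3 had no overlap between columns (0.568% of genes in every column). The median log2 fold change of the 6 was 2.25, beside -0.0914 over the 4227 genes in every column. Across 23 alternative settings that median stayed between 0.885 and 3.21. The list was chosen with earlier results of these data known, so its direction is not independent evidence.

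Ccl2 (chr11:82035571-82037453, mm10) encodes a main ligand of CCR2, the receptor that draws monocytes out of the blood. Ccl2 stood at 300.6, 555.8 and 97.7 TPM in the VE samples and at 7.16 and 4.03 TPM in the WT samples. The log2 fold change was 5.31 (SE 0.776, limma adjusted p = 0.0592). Every VE column was above every WT column, though the 2 repeat columns of VE 4 lay at 16.4 and 1095 TPM. With each sample left out in turn the log2 fold change was 4.75 to 6.00.

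Ccl12 (chr11:82101845-82103400, mm10), a mouse CCR2 ligand closely related to Ccl2, was the most abundant of these chemokines. It stood at 2078, 12955 and 4840 TPM in the VE samples and at 188.8 and 390.7 TPM in the WT samples. The log2 fold change was 4.22 (SE 0.633, limma adjusted p = 0.0592), and no column overlapped. VE 4 was the highest sample through its second repeat column, and without VE 4 the fold change was still 3.54 on the log2 scale. Without VE 3 the adjusted p was 0.0188, the only such omission that took Ccl12 past the threshold. Because Ccl2, Ccl7 and Ccl12 are related genes that lie close together, and the counting of reads shared between such copies is not stated, the split among them is uncertain.

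Ccl3 and Ccl4, inflammatory chemokines that activated microglia release, were higher in VE but varied strongly between repeat columns. Ccl3 stood at 1258, 1084 and 523.6 TPM in VE and at 424.9 and 39.0 TPM in WT, a log2 fold change of 2.78 (SE 0.820, limma adjusted p = 0.485). The repeat columns of WT 4 alone lay at 6.82 and 843.1 TPM for Ccl3, so the columns of the genotypes overlapped. Ccl4 stood at 1348, 1102 and 558.8 TPM in VE and at 578.8 and 140.5 TPM in WT (log2 fold change 1.72, limma adjusted p = 0.574), and here even the sample means overlapped. Ccl6, a constitutive macrophage chemokine that binds CCR1, stood at 1507, 1416 and 1005 TPM in VE and at 815.1 and 772.0 TPM in WT, with no overlap between columns and a log2 fold change of 0.70 (SE 0.262, limma adjusted p = 0.658). Ccl9, another CCR1 ligand, did not follow, with 150.2, 179.6 and 181.6 TPM in VE and 143.0 and 249.6 TPM in WT.

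The other 4 members did not meet the expression filter. Ccl7, a further CCR2 ligand, stood at 111.0, 236.4 and 3.13 TPM in VE but at 0.0248 and 0.0613 TPM in WT. Its value in VE 3 came from a single repeat column of 222.1 TPM, and the other was listed at 0. Ccl5 was at 15.5, 44.6 and 0.244 TPM in VE and at 0.128 and 0.238 TPM in WT, so VE 5 lay near the WT level. Ccl24 was at 2.03 to 19.8 TPM in all samples, and Ccl8 was listed at 0 in all 10 columns. None of the 10 chemokines of the CXC group, which attract neutrophils and lymphocytes, was tested: Cxcl16 was at 10.4 to 42.3 TPM, and Cxcl10 exceeded 1 TPM in VE 4 only, at 13.5 TPM.

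**Figure D2:**
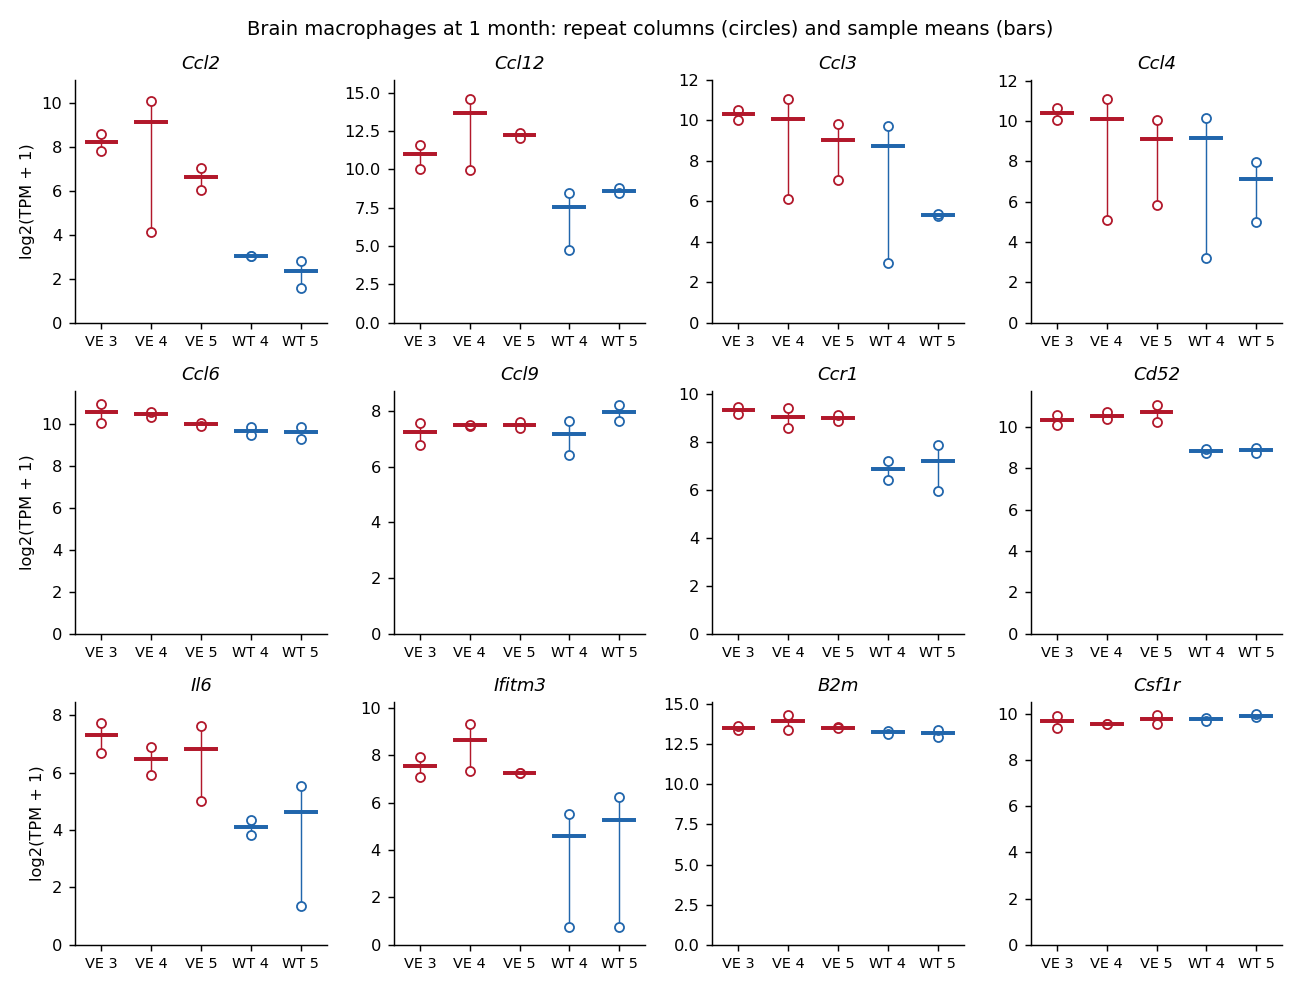
Log2(TPM + 1) of 12 genes in the 5 samples, with circles for the 2 repeat columns of each sample and a bar for their mean, VE in red and WT in blue. Ccl2, Ccl12, Ccl6, Ccr1, Cd52 and Ifitm3 have no overlap between the columns of the genotypes, while single columns of Ccl3, Ccl4 and Il6 reach across, and Csf1r and Ccl9 lie at like levels.

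Among cytokines, 6 of 21 genes were tested and none passed. Il6, the inflammatory cytokine induced by NF-kappaB and C/EBP factors, had the largest difference of those in every column. It stood at 157.4, 88.4 and 112.7 TPM in VE and at 16.3 and 23.5 TPM in WT. The log2 fold change was 2.51 (SE 0.582, limma adjusted p = 0.302), and the samples did not overlap, although the higher repeat column of WT 5 exceeded the lowest VE column. Il18 stood at 259.6 to 319.4 TPM in VE and at 146.5 and 228.3 TPM in WT (log2 fold change 0.66, limma adjusted p = 0.825). Il1a was as high in WT as in VE, with 524.6 and 286.9 TPM against 290.3, 424.7 and 346.5 TPM. Il1b was listed at 0 in both WT samples and stood at 0.440, 113.9 and 6.87 TPM in VE, so its level rested on VE 4. Osm, a member of the interleukin-6 family, was at 11.1, 2.79 and 6.01 TPM in VE and at 0.196 and 0.0704 TPM in WT, and did not meet the filter. Tnf was above 1 TPM in VE 5 only, at 4.27 TPM.

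Promoter sequence was compared for the genes of this inflammatory group. Of 9 such genes, 6 had an entry in the RefSeq promoter table (GRCm38.p6), and Ccl2, Ccl4 and Cd52 had none. The 250 bases before the transcription start are shown, 5′ to 3′ on the strand of the gene, for 3 genes of the lead group that were higher in VE and for Il6, where motifs were most numerous. Capitals mark matches to the motifs searched on both strands, which were AP-1 (TGANTCA), NF-kappaB (GGGANTTTC), the core of the interferon-stimulated response element (GAAANNGAA), ETS (CCGGAAGT) and C/EBP (TTGCNNAAT).
Ccl12, chr11:82101595-82101844, plus strand: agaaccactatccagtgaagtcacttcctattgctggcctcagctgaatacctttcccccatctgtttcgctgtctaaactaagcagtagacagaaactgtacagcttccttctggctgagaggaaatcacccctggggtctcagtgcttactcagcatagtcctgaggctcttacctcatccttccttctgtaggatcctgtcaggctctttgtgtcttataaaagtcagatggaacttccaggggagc
Ccr1, chr9:123968693-123968942, minus strand: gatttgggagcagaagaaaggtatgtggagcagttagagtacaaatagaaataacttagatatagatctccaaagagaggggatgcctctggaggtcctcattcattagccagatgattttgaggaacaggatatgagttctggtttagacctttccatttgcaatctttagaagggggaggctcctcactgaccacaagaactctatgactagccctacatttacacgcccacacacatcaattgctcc
Ifitm3, chr7:141010745-141010994, minus strand: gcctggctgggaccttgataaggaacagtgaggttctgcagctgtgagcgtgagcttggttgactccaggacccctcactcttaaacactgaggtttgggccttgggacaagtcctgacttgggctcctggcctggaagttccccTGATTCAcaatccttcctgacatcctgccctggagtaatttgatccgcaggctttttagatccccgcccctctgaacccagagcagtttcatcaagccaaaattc
Il6, chr5:30012864-30013113, plus strand: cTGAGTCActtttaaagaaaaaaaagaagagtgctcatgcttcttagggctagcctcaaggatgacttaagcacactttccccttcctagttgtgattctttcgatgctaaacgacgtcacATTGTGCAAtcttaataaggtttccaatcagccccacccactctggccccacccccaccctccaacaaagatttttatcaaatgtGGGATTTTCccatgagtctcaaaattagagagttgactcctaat
In Il6 an AP-1 match (TGAGTCA) began 249 bases, a C/EBP match (ATTGTGCAA, reverse strand) 129 bases and an NF-kappaB match (GGGATTTTC) 44 bases before the start. Ifitm3 held an AP-1 match (TGATTCA) that began 105 bases before the start. Ccl3 held a match to the interferon element (TTCCATTTC, reverse strand) that began 39 bases before the start. Ccl12, Ccr1 and Ccl6 held none of these letters in this window. Among 32851 mouse promoters of the same length, 6.75% held the AP-1 motif, 0.941% NF-kappaB, 7.13% the interferon element, 2.88% ETS and 2.11% C/EBP. The matches are letters in a window and were not measured as binding sites. The motifs were chosen after the expression values were seen, and the NF-kappaB and interferon forms were each shortened by 1 letter after the promoters had been searched. With the longer interferon form Ccl3 held no match.

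Of the 29 cytokine and chemokine receptors, 22 were tested, 18 of them in every column. The median log2 fold change of the 18 was -0.0504, near the background of -0.0914, and Ccr1 stood apart from it. Ccr1 (chr9:123962124-123968692, mm10) encodes a receptor for Ccl3, Ccl6, Ccl9 and related chemokines. It stood at 639.7, 533.0 and 512.1 TPM in VE and at 116.2 and 148.5 TPM in WT. The log2 fold change was 2.08 (SE 0.318, 95% interval 1.37 to 2.79, limma adjusted p = 0.0592), with no overlap between columns, and 1.91 to 2.26 with each sample left out in turn. Ccr2, the receptor for Ccl2 and Ccl12 on monocytes, stood at 0.670 to 2.49 TPM in VE and at 2.12 and 2.91 TPM in WT.

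Csf1r, the receptor that maintains microglia and whose promoter drives the Cre, stood at 810.5, 755.6 and 856.6 TPM in VE and at 857.9 and 958.1 TPM in WT. Its log2 fold change was -0.17, with a 95% interval of -0.71 to 0.37 (limma adjusted p = 0.924). The interferon-gamma receptor gene Ifngr1 (668.8 to 731.0 TPM in VE, 672.3 and 806.5 TPM in WT) and the TGF-beta receptor gene Tgfbr1 (530.7 to 817.0 TPM in VE, 616.0 and 698.0 TPM in WT) overlapped between the genotypes. Il6st, the shared signalling chain of the interleukin-6 family, was at 8.90 to 10.6 TPM in VE and at 5.55 and 2.82 TPM in WT (log2 fold change 1.10, limma adjusted p = 0.850).

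Cd52, a small surface glycoprotein of leukocytes, was the steadiest of the lead genes. Cd52 (chr4:134082448-134095082, mm10) stood at 1308, 1499 and 1688 TPM in VE and at 461.9 and 468.1 TPM in WT. The log2 fold change was 1.68 (SE 0.244, 95% interval 1.13 to 2.23, limma adjusted p = 0.0592). The lowest VE column, 1087 TPM, lay above the highest WT column, 506.7 TPM. With the repeat columns entered as observations, on genes in every column, Cd52 and Ccr1 were the 2 genes of 4227 (0.0473%) that passed (limma adjusted p = 0.00988 and 0.0484), a setting chosen after the data were seen. That fit has 10 columns for 5 samples, and its estimated correlation between repeat columns was -0.0213, so the columns counted nearly as independent samples. With samples as replicates both genes had a limma adjusted p of 0.0592.

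The mutated gene itself cannot be checked for the mutation from gene-level values. Braf transcript stood at 39.2, 3.88 and 22.9 TPM in VE and at 14.5 and 33.8 TPM in WT, so the genotypes overlapped. Of 21 components of the MAPK cascade, 15 were tested and none passed. Lamtor3, a scaffold of the cascade at the endosome, was higher in VE (179.9, 129.7 and 167.1 TPM against 70.8 and 64.5 TPM, log2 fold change 1.21, limma adjusted p = 0.630). Shc1, an adaptor upstream of RAS, was at 4.42, 1.59 and 9.36 TPM in VE and at 28.1 and 45.0 TPM in WT with no overlap between columns (log2 fold change -2.80, limma adjusted p = 0.568). Map2k2, which encodes the kinase MEK2, was at 5.87, 21.7 and 11.4 TPM against 36.9 and 86.1 TPM (log2 fold change -2.21, limma adjusted p = 0.708).

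Of 25 MAPK targets and feedback inhibitors, 6 were tested and none passed. Dusp6, the ERK phosphatase that ERK itself induces, stood at 325.0, 407.7 and 192.7 TPM in VE and at 140.0 and 409.4 TPM in WT. Its log2 fold change was 0.30 with a 95% interval of -0.84 to 1.44, an interval that spans both directions. Etv5, an ETS factor induced by ERK, was at 19.6 to 30.9 TPM in VE and at 18.3 and 34.7 TPM in WT. Its relative Etv1 differed more, with 50.4, 29.0 and 54.9 TPM in VE and 2.49 and 14.0 TPM in WT (log2 fold change 2.61, SE 0.939, limma adjusted p = 0.630). Ier3, an early response gene of the pathway, did not meet the filter but stood at 35.3, 13.2 and 18.9 TPM in VE and at 0.0640 and 0.104 TPM in WT. Spry2, Spry4, Dusp4 and Dusp5 were at 2.56 TPM or less in every sample, and Etv4 was listed at 0 throughout. The 4 members in every column had a median log2 fold change of 0.44, which ran from -0.425 to 0.788 across the alternative settings.

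Immediate early genes, which the handling of tissue can induce, were set beside these values. Of 22, 7 were tested and none had an unadjusted p under 0.05 (6.46% of all tested genes did). Zfp36 stood at 53.1 to 89.0 TPM in VE and at 62.5 and 82.3 TPM in WT, and Nfkbia at 47.7 to 120.6 TPM in VE and at 17.7 and 70.7 TPM in WT. Fos was above 3 TPM in VE 5 only, at 36.5 TPM. Their part in the chemokine values was not tested.

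Among 26 genes of NF-kappaB and JAK-STAT signalling, 12 were tested and none passed. Tnfaip3, an inhibitor of NF-kappaB, was at 1.02, 0.0886 and 4.34 TPM in VE and at 45.2 and 9.41 TPM in WT (log2 fold change -3.27, SE 0.918, limma adjusted p = 0.432). The subunit gene Nfkb1 was at 22.3 to 112.9 TPM in VE and at 33.0 and 99.6 TPM in WT. Of 28 genes of the type I interferon response, 9 were tested, 5 of them only through the VE columns. Ifitm3, an antiviral membrane protein, was the member with no overlap between columns. It stood at 187.9, 400.5 and 152.8 TPM in VE and at 22.8 and 37.1 TPM in WT, where each WT sample had a repeat column under 1 TPM. The log2 fold change was 2.91 (SE 0.552, limma adjusted p = 0.126). Rtp4 was at 123.0, 64.0 and 53.3 TPM in VE and at 20.4 and 24.1 TPM in WT (log2 fold change 1.71, limma adjusted p = 0.683). The direction of the list depended on which members were counted. The 4 in every column had a median of -0.133, which ran from -0.479 to 0.469 across the alternative settings. Over all 28 members, most of them not tested, the median was 0.996, beside -0.0023 over 28026 genes with no filter. Isg15 was at 5.96, 2.73 and 7.24 TPM in VE and at 19.3 and 5.32 TPM in WT. Ly6e was at 871.2 to 927.0 TPM in VE and at 1025 and 833.8 TPM in WT.

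Genes of microglial identity did not separate the genotypes by the test. All 25 homeostatic microglia genes were in every column, none passed and none had an unadjusted p under 0.05. Their median log2 fold change was -0.207, beside -0.0914 over all genes in every column, and 5 of 25 were positive where 43.4% of all genes were. That count was 1 without WT 4 and 11 without WT 5. P2ry12 stood at 19899, 20100 and 16918 TPM in VE and at 16768 and 15689 TPM in WT, with a 95% interval of -0.17 to 0.61 for the log2 fold change. It was the member whose samples lay wholly above WT (8.73% of genes in every column did), and 7 lay wholly below (11.5% of genes did), namely Mertk, Fcrls, Trem2, Bin1, Csf1r, Gpr34 and Cx3cr1. Cx3cr1, the receptor for the neuronal chemokine fractalkine, was at 312.9 to 332.9 TPM in VE and at 365.6 and 452.0 TPM in WT (log2 fold change -0.33, limma adjusted p = 0.879). Across the alternative settings the median of the list was -0.412 to -0.0891.

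The transcription factors that set this identity also overlapped. Of 20, 17 were tested and none passed. Spi1, which encodes PU.1, stood at 269.7, 176.7 and 280.9 TPM in VE and at 240.1 and 118.9 TPM in WT. Sall1, a factor specific to microglia among macrophages, was at 57.6 to 90.3 TPM in VE and at 75.3 and 96.8 TPM in WT.

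The genes of disease-associated microglia, a state seen around damage, gave no gene past the adjusted threshold. Of 30 listed genes 29 were found and 15 were tested, and the 14 in every column had a median log2 fold change of -0.209. With Cd52 and Ccl6, 4 of the 15 tested members had an unadjusted p under 0.05 (6.46% of all tested genes did), and the other two were Spp1 and B2m. Spp1, which encodes osteopontin, was at 229.1, 130.7 and 44.3 TPM in VE and at 34.4 and 0.945 TPM in WT (log2 fold change 3.74, SE 1.20, limma adjusted p = 0.527). B2m, the light chain of MHC class I, was at 11844, 15828 and 11898 TPM in VE and at 9679 and 9377 TPM in WT (log2 fold change 0.46, limma adjusted p = 0.741). Apoe, a lipid carrier that typifies the state, was not higher, with 583.3, 934.2 and 662.0 TPM in VE and 608.6 and 1071 TPM in WT. Trem2, a lipid receptor of microglia, was at 969.9 to 1176 TPM in VE and at 1182 and 1540 TPM in WT. Itgax, another defining gene, was at 1.04, 2.80 and 1.81 TPM in VE and at 0.00312 and 0.00359 TPM in WT and did not meet the filter, nor did Axl, Clec7a or Gpnmb.

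**Figure D3:**
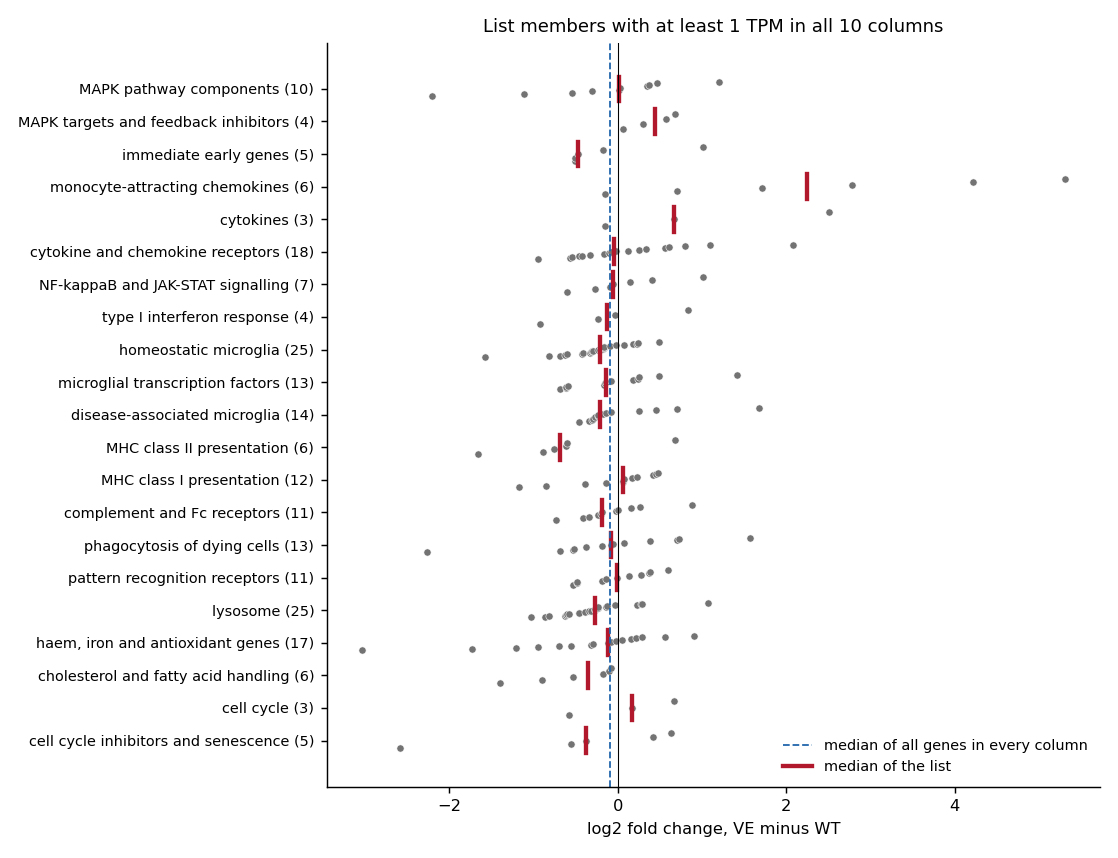
Log2 fold change (VE minus WT, x axis) of list members with at least 1 TPM in all 10 columns, a point per gene, for lists with 3 or more such members (their number in brackets). Red bars mark list medians and the dashed line the median of the 4227 genes in every column, -0.0914. The median of the monocyte-attracting chemokines, 2.25, lies furthest from that line.

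Antigen presentation gave mixed values. Of 13 MHC class II genes 7 were tested, and the 6 in every column had a median log2 fold change of -0.683. Cd86, a costimulatory ligand for T cells, was at 262.4, 227.3 and 128.5 TPM in VE and at 312.3 and 430.5 TPM in WT (log2 fold change -0.89, limma adjusted p = 0.772). Cd74, the invariant chain, overlapped widely, with 75.6 to 331.3 TPM in VE and 92.9 and 557.0 TPM in WT. The 12 class I genes in every column had a median of 0.0641. Among complement and Fc receptor genes, 13 of 17 were tested and 1 had an unadjusted p under 0.05, a share near the 6.46% of all tested genes. That gene was Fcgr2b, the inhibitory Fc receptor, at 408.7, 329.8 and 579.4 TPM in VE and at 211.0 and 252.5 TPM in WT (log2 fold change 0.89, SE 0.346, limma adjusted p = 0.695). C1qb, a chain of complement C1q, was at 6064 to 6927 TPM in VE and at 6933 and 9451 TPM in WT.

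Of 28 lysosomal genes, 27 were tested and 25 were in every column, and none passed. Of the 25, 4 were positive where 43.4% of all genes in every column were, a count that was 7 without VE 5 or without WT 5 and 12 with the second repeat column alone. Their median log2 fold change was -0.269, and it stayed below 0 in the alternative settings (-0.522 to -0.0528). Ctsz, which encodes cathepsin Z, had no overlap between columns. It stood at 773.7, 387.5 and 630.0 TPM in VE and at 998.3 and 1099 TPM in WT (log2 fold change -0.87, SE 0.326, limma adjusted p = 0.658). Ctsd, the main aspartic protease of the lysosome, was at 3096, 2550 and 2672 TPM in VE and at 3097 and 4703 TPM in WT, whereas Lamp2, a membrane protein of the lysosome, was at 579.4 to 762.4 TPM in VE and at 529.5 and 560.7 TPM in WT.

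Receptors for dying cells and for microbial patterns showed no common direction. The 13 tested genes for uptake of dying cells had a median of -0.0817, and the 11 pattern receptors in every column one of -0.0125. Mertk, a receptor tyrosine kinase for dying cells, was at 90.1, 122.0 and 192.3 TPM in VE and at 201.3 and 214.6 TPM in WT (log2 fold change -0.69, limma adjusted p = 0.840). In the list of haem, iron and antioxidant genes none of the 19 tested members passed. Cat, which encodes catalase, stood at 6.89, 22.9 and 2.95 TPM in VE and at 87.7 and 61.5 TPM in WT with no overlap between columns (log2 fold change -3.04, SE 0.981, limma adjusted p = 0.531).

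Genes of lipid handling and the cell cycle were few. Lpcat3, a phospholipid-remodelling enzyme, was at 66.9, 46.6 and 76.5 TPM in VE and at 129.2 and 211.8 TPM in WT (log2 fold change -1.40, SE 0.499, limma adjusted p = 0.630). Of 25 cell cycle genes 5 were tested. Pcna, the replication clamp, was alike at 99.3 to 109.6 TPM in VE and 74.4 and 115.4 TPM in WT. Ccne2, the cyclin E2 gene, was at 13.9, 87.9 and 30.2 TPM in VE and at 0.437 and 2.28 TPM in WT with no overlap between columns (log2 fold change 3.995, SE 1.01, limma adjusted p = 0.363). Of 21 cell cycle inhibitors and senescence genes 7 were tested and none passed.

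Outside the lists, the named genes were the protein-coding genes with the largest difference and no overlap between columns. With VE higher these were Ccl2, Ccl12 and Ccne2, described above, and Galm, Hscb, Mad2l2, Glipr1l1, Rps19bp1, Btbd19 and Fbxo28. Apart from Ccl2 and Ccl12, all of these were kept through the VE columns only, which favours genes higher in VE. Galm, which encodes a sugar mutarotase, was at 40.4, 15.1 and 18.7 TPM in VE and at 0.0811 and 0.0967 TPM in WT (log2 fold change 4.44, SE 0.758, limma adjusted p = 0.0796). Mad2l2, a subunit of DNA polymerase zeta, was at 201.7, 58.5 and 123.2 TPM in VE and at 9.40 and 2.58 TPM in WT (log2 fold change 4.23, SE 0.840, limma adjusted p = 0.160). With VE lower they were Kat8, Mettl17, Nit2, Slamf9, Rnf141, Dgcr8, Gbf1, Surf2, Chst10 and Tbx6. All 10 were kept through the WT columns only, which favours genes higher in WT. Kat8, a histone H4 acetyltransferase, was at 2.07, 0.146 and 0.0330 TPM in VE and at 67.1 and 47.8 TPM in WT (log2 fold change -5.23, SE 0.779, limma adjusted p = 0.0592). Dgcr8, the partner of Drosha in microRNA processing, was at 0.854, 2.48 and 0.753 TPM in VE and at 27.6 and 67.9 TPM in WT (log2 fold change -4.31, SE 0.798, limma adjusted p = 0.126). Tbx6, a T-box factor of the embryo, was at 0.106, 0.0544 and 0.620 TPM in VE and at 16.6 and 15.0 TPM in WT (log2 fold change -3.77, SE 0.508, limma adjusted p = 0.0592). Nit2 and Slamf9 were not near 0 in every VE sample, with 25.5 TPM in VE 3 and 22.1 TPM in VE 4.

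Markers of other brain and blood cells were measured in the same samples. Oligodendrocyte markers were lower in each VE sample than in either WT sample: summed over 14 genes they reached 19.4, 56.8 and 50.6 TPM in VE and 478.6 and 264.3 TPM in WT. In WT most of the sum came from Mbp and Mobp, which encode myelin proteins. Mobp was at 3.20, 0.195 and 0.438 TPM in VE and at 100.1 and 48.1 TPM in WT (log2 fold change -5.19, SE 0.876, limma adjusted p = 0.0796), and Mbp at 2.08, 41.4 and 42.4 TPM in VE and at 257.2 and 161.2 TPM in WT (log2 fold change -3.52, limma adjusted p = 0.517). Repeat columns of both genes overlapped between the genotypes. The WT columns of Mobp lay at 1.84, 198.3, 93.0 and 3.09 TPM, beside a highest VE column of 3.90 TPM. The lowest WT column of Mbp, 11.3 TPM, lay under VE columns of 80.4 and 84.0 TPM. Of the 14 markers 8 had a lower mean in VE and 5 a higher mean, 6 stayed under 1 TPM in all columns, and Opalin was listed at 0 throughout. In a bulk sample fewer cells of a type and less RNA per cell cannot be told apart, and the part of these cells in the lower genes was not tested.

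Monocyte markers, 14 genes, summed to 5.62, 229.0 and 76.8 TPM in VE and to 7.08 and 119.2 TPM in WT, so the genotypes overlapped. Their defining gene Ly6c2 was at 0.1001 TPM or less in every sample, and the part of monocytes in the chemokine values was not tested. Perivascular and meningeal macrophage markers summed to 129.4, 270.3 and 354.7 TPM in VE and to 341.0 and 131.2 TPM in WT, and Stab1 was the largest contributor in each sample. Neutrophil markers stayed at 10.9 TPM or less and red cell markers at 23.4 TPM or less in sum. Both sums were lower in each VE sample than in either WT sample. Neuron markers were at 0.83, 13.6 and 6.13 TPM in VE and at 45.3 and 12.6 TPM in WT. Astrocyte markers were at 91.6 to 216.5 TPM in VE and at 269.2 and 289.1 TPM in WT, also lower in each VE sample. A lower mean in VE was held by 12 of 12 neutrophil, 7 of 8 red cell, 10 of 13 astrocyte and 10 of 14 neuron markers. In these lists 0, 1, 3 and 3 markers had a higher mean, and 8, 4, 5 and 9 stayed under 1 TPM in all columns. Lymphocyte markers were at 309.0 to 554.1 TPM in VE and at 335.0 and 585.8 TPM in WT. Ighm, an immunoglobulin heavy chain gene, gave most of the lymphocyte sum in 4 of the 5 samples.

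**Figure D4:**
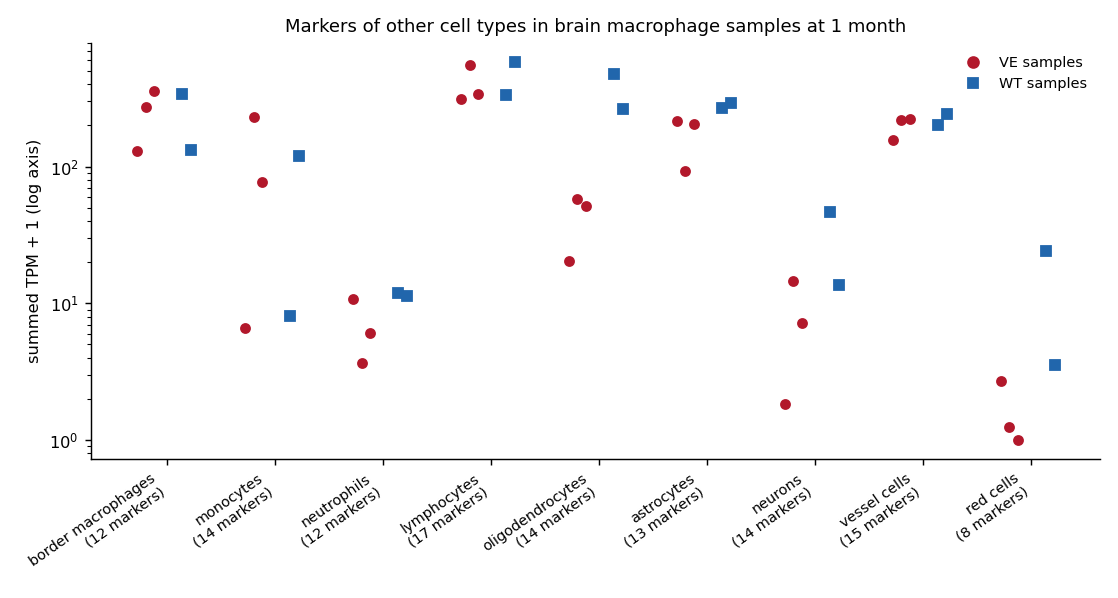
Summed TPM + 1 (log axis) of the markers of 9 other cell types in each VE sample (red circles) and WT sample (blue squares), with the number of markers in brackets. The oligodendrocyte sum is 19.4 to 56.8 TPM in VE and 264.3 to 478.6 TPM in WT, and the monocyte sum overlaps between the genotypes.

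The brain differences were also set against those of liver macrophages of the same age, 3 VE and 3 WT samples in the same table, of which 1 WT sample has a single column here. The difference of the differences was tested with limma, and 7 of 6301 genes (0.111%) passed at an adjusted p under 0.05. Of the 7 genes, 2 had entered through the brain VE columns only and 4 through the brain WT columns only. The filter had thus favoured the direction of their brain difference, and only Gpr34 was in every brain column. Ifitm3 was among those kept through the VE columns: its brain difference exceeded that in liver by 2.996 on the log2 scale (SE 0.486, limma adjusted p = 0.0315). Its level was far higher in liver, where it stood at 4228 to 5802 TPM in VE and at 4445 to 6115 TPM in WT. Tbx6 differed by -3.85 (limma adjusted p = 0.00174) and Mobp by -5.24 (limma adjusted p = 0.00477), both near 0 TPM in liver of either genotype. For Ccl2 and Ccl12 the interaction did not pass. Ccl2 in liver stood at 410.0, 209.0 and 245.6 TPM in VE and at 267.7, 123.5 and 110.3 TPM in WT, and the difference of the differences was 4.48 (limma adjusted p = 0.18). Ccl12 in liver was at 33.5 to 44.0 TPM in VE and at 19.1 to 21.8 TPM in WT, with a difference of 3.27 (limma adjusted p = 0.14). Cd52 was at 1276 to 1566 TPM in VE liver and at 997.9 to 1560 TPM in WT liver, with a difference of 1.47 (limma adjusted p = 0.29). Ccr1 was low in liver, at 12.2 TPM or less.

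**Figure D5:**
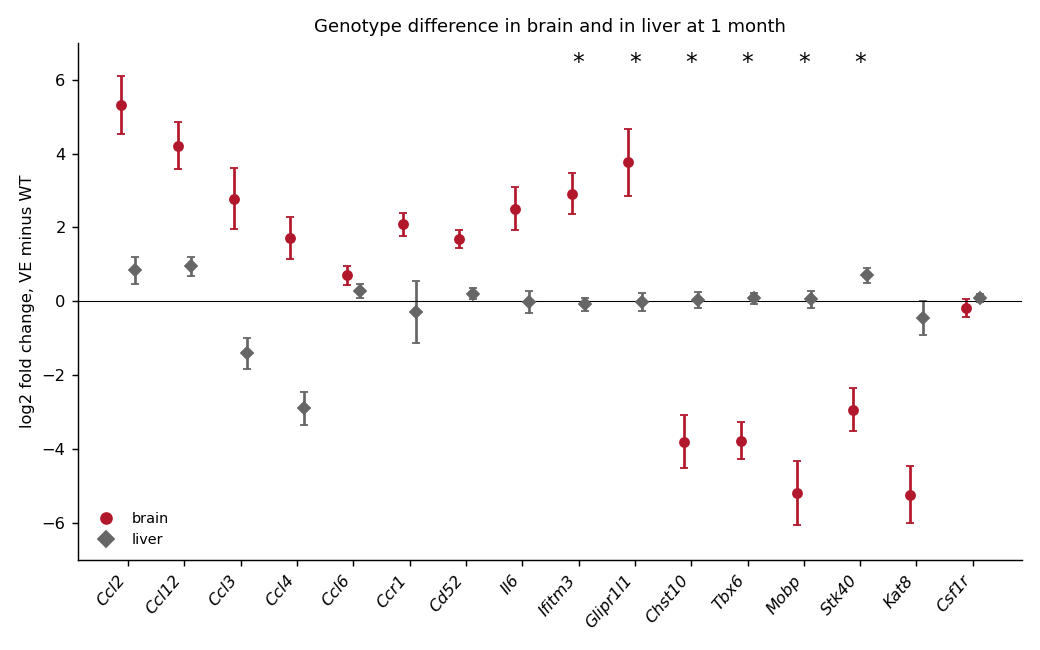
Log2 fold change (VE minus WT) with its standard error for 16 genes in brain (red circles) and liver (grey diamonds) at 1 month, with an asterisk where the difference between the organs passed (adjusted p under 0.05). The points for Ccl2 and Ccl12 lie above 0 in both organs, at 5.31 and 4.22 in brain and at 0.84 and 0.95 in liver.

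Values for 4 brain samples at 6 months come from a table made separately, so they are given side by side with no test across the ages. The titles of these samples carry the tag veh, which the labels do not explain, and 1 WT sample has a single column here. The sample names in these titles also begin with sc, unlike those at 1 month, and only the VE names carry YFP. There Ccl12 stood at 11770 and 4865 TPM in VE and at 1531 and 628.6 TPM in WT. Cd52 was at 9585 and 7318 TPM in VE and at 1891 and 1450 TPM in WT, and Ccr1 at 456.8 and 111.4 TPM in VE and at 97.8 and 32.4 TPM in WT. For these 3 genes every VE sample was above every WT sample at both ages. Other genes named above turned: Galm, Mad2l2, Glipr1l1 and Rps19bp1 had every VE sample below every WT sample at 6 months. Slamf9 and Gbf1, lower in VE at 1 month, had every VE sample above every WT sample at 6 months. Among those that kept their direction were Ccl2, Ifitm3, Fbxo28, Kat8, Rnf141, Surf2 and Tbx6. P2ry12 was at 716.3 and 3584 TPM in VE and at 8256 and 8898 TPM in WT at 6 months. Apoe was at 15148 and 7744 TPM in VE and at 731.7 and 2097 TPM in WT at 6 months, whereas the genotypes overlapped at 1 month. Csf1r was at 63.2 and 80.7 TPM in VE and at 419.8 and 449.4 TPM in WT at 6 months.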

How the data were processed

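RNA from sorted cells was amplified with the SMART-seq V4 kit (14 cycles) and sequenced as 50 base paired reads, per the labels' protocols. Since the kit gives no strand, reads of overlapping or antisense genes are not separated. STAR and the build mm10 are named in the submitters' processing notes. The authors deposited TPM per gene with 2 columns per sample, which the labels do not explain (1 column here for a liver WT and a 6-month WT sample). Gene names came from GENCODE M21 (96.6% of 39017 identifiers matched). From the TPM values the repeat columns were averaged, genes with at least 1 TPM in every column of a genotype kept, and log2(TPM + 1) tested with limma 3.58.1 in R 4.3.3 (trend, Benjamini-Hochberg, threshold 0.05), which was tested on simulated data. The fit used the 5 brain samples only, because a joint fit shares the smaller spread of the liver samples. The fold change is on the log2(TPM + 1) scale, which understates changes of low genes. The brain and liver differences were compared in a 4-group fit with a weight per organ. Named genes were Braf and Csf1r, the 10 protein-coding genes in each direction with the largest difference and no column overlap, and list members past the threshold or without overlap (otherwise the 2 most abundant). Il6, Ccl3, Ccl4, Ccl5, Ccl7, Spp1, Etv1 and other members outside this rule were named after their values were seen. The groups and gene lists were chosen with earlier results of these data known. Alternatives covered the repeat columns, pseudocount, filter, scaling, fit and each sample left out. Some list members are not reported here.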

Additional observations from a re-analysis of the deposited data

Results flagged for a closer look

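For 7 genes the genotype difference in brain differed from that in liver by the interaction test (limma, adjusted p under 0.05), each value being the brain difference minus the liver difference on the log2 scale. All but Gpr34 met the expression filter through 1 brain genotype only. The filter favoured higher levels there, so the direction of their brain difference was not independent of it. Glipr1l1 had 3.78, with brain levels of 39.8, 54.5 and 49.2 TPM in VE and 5.25 and 1.03 TPM in WT, and under 0.1 TPM in every liver sample. Ifitm3 had 2.996, with brain levels given above and no liver difference beyond -0.08. Chst10 had -3.82, with 0.0608, 0.208 and 0.748 TPM in VE brain and 7.37 and 38.4 TPM in WT brain. Tbx6 had -3.85 and Mobp, an oligodendrocyte gene, -5.24. Stk40 had -3.63, with 1.14, 1.04 and 1.07 TPM in VE brain and 17.8 and 12.5 TPM in WT brain. Gpr34 had -4.44, which came from liver: it stood at 13.8, 28.8 and 19.3 TPM in VE liver and at 0.0128, 0.321 and 0.0113 TPM in WT liver, while in brain it was at 7230 to 9184 TPM in VE and at 9314 and 9413 TPM in WT. Brain libraries had the lower weight in this fit (0.422 against 2.05 for liver). For all but Gpr34 the SE was nevertheless below that of the brain fit alone, so the adjusted p may be too small.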

How the results depend on the processing

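The count of 1 gene past the threshold changed with most settings, all fitted with limma. It was 11 with the mean of log2 repeat values, 20 with repeat columns as observations, 2 with the latter on genes in every column of both genotypes (added after the data were seen), 2 with a pseudocount of 0.1, 6 with a minimum of 5 TPM, 5 after rescaling to nuclear protein-coding genes and 113 in a joint fit with liver. It was 0 with either repeat column alone, a pseudocount of 5, no filter, a mean of at least 1 TPM, 1 TPM in every column of both genotypes, or quantile normalization, where 201 to 1128 genes had an unadjusted p under 0.05. Leaving out each sample in turn gave 0 to 1. VE and WT share only the numbers 4 and 5, which nothing ties to a shared animal or batch, so the numbers were not taken as pairs. Same-numbered samples deviated from their group means with correlations of 0.022 and 0.0040. The deviations of the 2 WT samples mirror each other, so these correlations cannot decide whether samples were paired. With a replicate block 67 genes passed in the brain comparison and 4 in the interaction. In the brain comparison the block takes VE 3 out of the difference, and the fit without VE 3 gave 1 gene. Genes without column overlap, 122 in all, numbered 341 with no filter, 246 with a mean of at least 1 TPM, 62 with 1 TPM in every column of both genotypes, and 263 to 617 with a sample left out. The interaction count of 7 became 12 without organ weights, 0 with a pseudocount of 0.1, 0 with a mean of at least 1 TPM (449 and 768 genes at unadjusted p under 0.05) and 2 to 10 with a sample left out. The causes were not tested. Ccl2, Ccl12, Ccr1 and Cd52 kept their direction in all 23 settings, with log2 fold changes of 3.41 to 6.00, 2.198 to 6.15, 1.81 to 2.67 and 1.59 to 1.78, and passed in 5, 6, 6 and 7 of them. No columns of these genes overlapped, so their direction could not turn with the repeat column, pseudocount, filter or left-out sample. Their adjusted p ran up to 0.701, 0.701, 0.542 and 0.542. The sign of the log2 fold change turned in at least 1 setting for 17 of the 60 named genes tested, none of which passed the limma adjusted threshold with either sign. With the first repeat column alone it became Braf 1.12, Etv5 -0.029, Zfp36 2.02, Il1a 0.81, Nfkb1 0.11, Cst3 -0.021, Pros1 0.014, Apoe 0.33. With the second alone it became Spi1 -0.29, Maf -0.094, Psme2 -0.49, Rb1 0.057, Bcl2l11 0.024, Slc1a3 0.16. With the mean of log2 repeat values, and with repeat columns as observations, it became Braf 0.11, Zfp36 0.63, Il1a 0.016, Psme2 -0.0079, and the last 3 of these kept these values on genes in every column. Median-ratio scaling gave Nfkb1 0.039, Pros1 0.047, quantile normalization Nfkb1 0.12 and the replicate block Psme2 -0.019. With a sample left out the turned values ran -0.59 to 0.23 for Apoe, -1.10 to 0.42 for Braf, -2.04 to 0.53 for Cd74, -0.033 to 0.15 for Cst3, -0.47 to 1.07 for Dusp6, -0.38 to 0.51 for Etv5, -0.58 to 0.28 for Il1a, -0.84 to 0.72 for Nfkb1, -0.16 to 0.049 for Pros1, -0.083 to 0.22 for Psme2, -0.99 to 0.65 for Rb1, -0.016 to 0.99 for Spi1, -0.25 to 0.81 for Tmem173, -0.42 to 0.020 for Zfp36. Quantile normalization moved the median of all genes from -0.138 to 0.0035. TPM keeps no depth, so what depth limits cannot be given.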
